A study of Mus musculus with 6 samples.

Results

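A resting library whose deposited files are named KO was compared with a resting library whose files are named basal, 2 of 6 RNA sequencing libraries of a mouse aortic cell line. The members were taken by file name because names and labels disagree: the labels call the library named KO Rescue and the library named basal WT. Both had no TNF under names and labels alike. Below, "named" means by file name. The name basal is taken to mean the parental line, which the names do not state.

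The series followed a mouse aortic endothelial line in which the splicing repressor gene Ptbp1 had been deleted by CRISPR and then replaced by a human PTBP1 cDNA, before and after TNF at 30 ng/mL. The parental line is described as Fn AB+/- and as immortalised with SV40 sequence that doxycycline switches on (TetOn). All cells, controls included, were expanded in doxycycline at 2 ug/mL, taken off it and plated in medium with 10% fetal bovine serum. The deleted line is 1 single-cell clone, so effects of Ptbp1 loss, of cloning and of the individual culture cannot be told apart. With 1 library per group there is no replicate check, and no p-value is given. Intervals in brackets are exact 95% intervals that cover counting error only.

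The other 4 libraries are named basal with TNF (labelled KO), KO with TNF (labelled WT_TNF), rescue (labelled KO_TNF) and rescue with TNF (labelled Rescue_TNF). Depth was 19601426 expected counts for the library named basal and 20512071 for the library named KO, with 19582767 to 21609230 over all 6. The 37 listed TNF and NF-kB targets summed to 2007 CPM (counts per 1000000, scaled with TMM factors) in the library named basal, 2214 in that named KO and 1622 in that named rescue. They summed to 11013, 4084 and 7549 CPM in the 3 libraries named TNF. The sum was therefore low in both libraries compared here and high in every library named TNF, while the label of the library named basal with TNF says that it had none.

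Of 20 endothelial markers only 6 reached a mean of 1 CPM over both resting libraries. Eng, a TGF-beta co-receptor, was at 284 CPM in the library named basal and 257 in that named KO, and the VEGF receptor Flt1 at 14.5 and 14.0. The defining markers Pecam1 (0.46 and 0.44), Cdh5 (0.46 and 0.00), Kdr (0.76 and 0.20) and Tie1 (0.00 and 0.05) were near 0. By contrast the fibrillar collagen gene Col1a1 stood at 14823 and 11063 CPM and the receptor Pdgfrb at 473 and 574, so the labelled endothelial identity had little backing from these markers. Of 12 macrophage and blood cell markers analysed, 5 had 0 counts in both libraries, Ptprc, Itgam, Tyrobp and Cd3e among them. A further 3 reached a mean of 1 CPM, with log2 ratios from -0.42 to -0.13, so not all such markers were absent.

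Cells sense viral nucleic acid with RNA and DNA sensors that switch on interferon genes. Secreted type I interferon binds the receptor chains Ifnar1 and Ifnar2, the kinases Jak1 and Tyk2 then activate STAT factors such as Stat2, which join Irf9 in a complex that binds the interferon-stimulated response element (ISRE) of antiviral genes. Interferon gamma acts through Jak2 on the gamma-activated site (GAS), and Usp18 ends type I signalling at the receptor. Ptbp1 binds pyrimidine-rich RNA, represses many exons, and keeps its paralogue Ptbp2 low by keeping an exon out of the Ptbp2 messenger RNA.

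Without any added cytokine, the library named KO carried high levels of antiviral and antigen presentation genes, with the interferon receptors near their parental level and almost no interferon messenger RNA. It also had more Ptbp2 and more cell division transcripts, and it had almost no Cd34, Thy1, Mmp2 or Efemp1 transcript. Of 11879 genes with a mean of at least 1 CPM in the pair, 530 were at least 2-fold higher in the library named KO (4.46%) and 831 at least 2-fold lower (7.0%), with a median log2 ratio of 0.01 over all of them. Of 115 interferon response genes in 8 lists, 81 were at least 2-fold higher and 1 was lower, with a median log2 ratio of 1.79. Of the 12 genes with the highest log2 ratios among those reaching 20 CPM, 7 belonged to these lists.

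**Figure D1:**
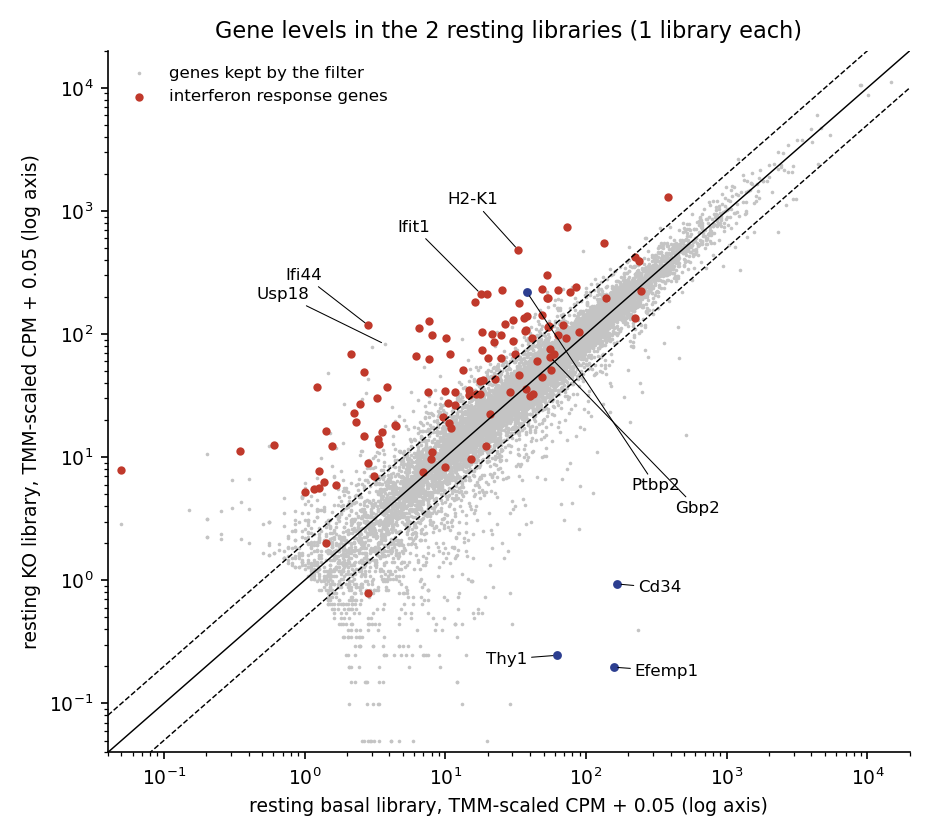
Level of each gene kept by the filter in the library named basal (x axis) and the library named KO (y axis), as TMM-scaled CPM plus 0.05 on log axes, 1 point per gene. The solid line marks equal levels and the dashed lines a 2-fold difference. Interferon response genes (red) lie mostly above the upper line, while Cd34, Thy1 and Efemp1 lie far below the lower one.

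Ptbp1 is the gene targeted by CRISPR. Its level was 337 CPM (329 to 346) in the library named basal and 387 (378 to 395) in that named KO, against 174 in that named rescue. Transcript abundance was thus not lower in the library named KO. Whether reads of the human PTBP1 cDNA were counted under this mouse gene is not known. The value of the library named rescue may therefore not be its total PTBP1 level. Ptbp1 exons did differ: an exon of 30 nt at chr10:79858952-79858981 (GRCm38, plus strand) had an inclusion fraction, or psi, of 1.0 in the library named basal (648 reads) and 0.854 in that named KO (681 reads). The 175-nt exon at chr10:79859781-79859955 had a psi of 1.0 and 0.846. It had 436 and 143 reads. Both differences at rest, -0.146 and -0.154, were short of the 0.2 used for calls. The library named KO with TNF gave a psi of 0.85 at both exons, while the remaining 3 libraries gave 1.0. At the 175-nt exon the library named rescue had only 17.9 reads (interval 0.853 to 0.997). The library named rescue with TNF had 9.0 (0.741 to 0.995). Both are under the minimum of 20 reads, so psi of this exon is uncertain there.

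Ptbp2, the neuronal paralogue, was at 38.1 CPM (35.4 to 40.9) in the library named basal and 218 (212 to 225) in that named KO, 5.72-fold higher (5.30 to 6.19). It was at 67.9 CPM in the library named rescue, between these values. Among 25 splicing regulators that passed the filter, Ptbp2 was the only member past 2-fold in either direction (4.0% of the list), and Ptbp3, the third paralogue, was at 1.47 times its basal level (1.37 to 1.57). The Ptbp2 exon that Ptbp1 keeps out, 34 nt at chr3:119724612-119724645 on the minus strand, is coding and not a multiple of 3, so its loss shifts the reading frame. Its GENCODE exon sequence is shown because its inclusion separates the resting libraries:
Ptbp2 exon, 34 nt: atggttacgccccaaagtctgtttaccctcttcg
Psi of this exon was 0.562 in the library named basal (57 reads, the authors' interval 0.453 to 0.664) and 1.0 in that named KO (435 reads, 0.993 to 1.0), with 0.891 in that named rescue. In reads across junctions, 16 skipped the exon in the library named basal and 4 in that named KO. Reads joining it upstream and downstream numbered 23 and 18 in the former and 240 and 195 in the latter. The exon was therefore included in nearly all Ptbp2 messenger RNA of the library named KO.

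Interferon ligand transcripts were near 0. All 19 listed ligand genes together summed to 0.6 CPM in the library named basal and 0.7 in that named KO, and 15 of the 19 had 0 counts in both. Ifnb1, which encodes interferon beta, had 1 count in the library named basal and 4 in that named KO, a ratio of 3.88 (0.383 to 191). The other 4 libraries gave 1, 2, 0 and 1 Ifnb1 counts, so no difference in Ifnb1 was detectable at this depth. Among the remaining genes the highest was Ifnz, with 9 and 10 counts, and Ifng had 0 and 1.

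Interferon receptors and their kinases stayed near the parental level, with 0 of 8 tested members past 2-fold either way and a median log2 ratio of 0.06. Ifnar1 was at 118 CPM (named basal) and 123 CPM (named KO), Ifnar2 at 53.9 and 56.5, and Jak1 at 289 and 319. Tyk2 was at 39.1 and 31.4, and Jak2, which serves the interferon gamma receptor, at 63.8 and 45.9. The receptor genes hence had similar levels in both resting libraries.

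The factors downstream were higher. Stat2, which serves type I signalling, was at 53.3 CPM (named basal) and 196 (named KO), 3.68-fold higher (3.44 to 3.95). Its partner Irf9 was 3.63-fold higher (3.35 to 3.94). Irf7, an interferon-inducible factor that amplifies interferon production, was 12.1-fold higher (10.3 to 14.3), at 8.06 and 97.5 CPM. In this list 5 of 9 tested genes were at least 2-fold higher, with a median log2 ratio of 1.65 that was 1.05 in the second quantification. Irf3, the constitutive factor activated by sensors, was at 20.7 and 22.4 CPM. Irf1, which answers interferon gamma and NF-kB, was at 59.0 and 68.6, and Stat3 was at 224 and 135 CPM, within 2-fold.

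Sensors of foreign nucleic acid divided along similar lines. Of 19 tested sensors and adaptors 10 were at least 2-fold higher and 0 lower, with a median log2 ratio of 1.18. The cytosolic RNA sensors Ddx58 (RIG-I) and Ifih1 (MDA5) were 2.84-fold (2.68 to 3.0) and 4.10-fold (3.66 to 4.62) higher. The RNA-dependent kinase Eif2ak2 (PKR), the RNA-editing enzyme Adar and the DNA-binding protein Ifi204 were 2.88-fold, 3.71-fold and 4.67-fold higher. Ddx60, a helicase that assists RNA sensing, stood furthest apart at 3.24 and 30.1 CPM. The signalling adaptors and kinases that carry the signal onward stayed within 2-fold: Mavs was at 48.8 and 44.9 CPM, Tbk1 at 56.8 and 51.1, Ticam1 at 37.3 and 35.9, and the adaptor Tmem173 (STING) at 41.7 and 32.7. The kinase Ikbke, which acts beside Tbk1, had the lowest log2 ratio of the list, -0.66.

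Antiviral effectors were mostly higher. Ifi44, an interferon-induced protein, was at 2.79 CPM (2.10 to 3.63) in the library named basal and 118 (113 to 122) in that named KO, 42.2-fold higher (32.3 to 56.2). Ifit1, which binds viral RNA, was at 17.9 and 211 CPM, 11.8-fold higher (10.6 to 13.2). Isg15, a ubiquitin-like modifier, was at 7.65 and 128 CPM, 16.7-fold higher (14.2 to 19.8). Of 29 tested effectors 24 were at least 2-fold higher and 0 lower, with a median log2 ratio of 1.95. Ifi27l2a was 33.1-fold (24.3 to 46.3), Rtp4 17.1-fold (14.4 to 20.7) and the tetherin gene Bst2 10.9-fold (9.80 to 12.1) higher. Rsad2 (viperin) was at 0.56 and 12.4 CPM, and Mx2, a dynamin-like antiviral GTPase, at 2.43 and 26.9. The 5 members that stayed within 2-fold were Ifit2 (45.1 and 60 CPM), Isg20, Ifit1bl2, Ifitm2 and Ifitm3 (222 and 426 CPM). Ifitm1 had 35 counts in the library named basal and 0 in that named KO, at least 12-fold lower against a floor of 3 counts. It was under the filter and went the other way from the rest.

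Promoters of these effectors were read for the ISRE, searched as GAAANNGAAA on either strand in the 250 bases before the RefSeq start (GRCm38.p6). Stretches of 100 bases are shown for 6 genes of these lists, with matches in capitals, because these were among the highest log2 ratios of the interferon response genes that held a match:
Ifit1, chr19:34640749-34640848, plus strand: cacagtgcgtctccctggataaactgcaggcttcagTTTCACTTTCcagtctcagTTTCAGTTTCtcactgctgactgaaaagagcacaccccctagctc
Ifit3, chr19:34583345-34583444, plus strand: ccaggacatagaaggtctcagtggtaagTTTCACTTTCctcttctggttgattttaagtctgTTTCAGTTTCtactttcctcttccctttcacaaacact
Isg15, chr4:156200836-156200935, minus strand: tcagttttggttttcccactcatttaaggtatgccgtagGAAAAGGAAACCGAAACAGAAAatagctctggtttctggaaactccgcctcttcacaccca
Rsad2, chr12:26456518-26456617, minus strand: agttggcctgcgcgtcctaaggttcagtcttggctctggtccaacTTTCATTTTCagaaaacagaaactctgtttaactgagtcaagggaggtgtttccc
Oas1a, chr5:120907526-120907625, minus strand: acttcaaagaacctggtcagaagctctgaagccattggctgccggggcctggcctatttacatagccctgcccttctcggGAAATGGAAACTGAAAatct
Oas1g, chr5:120887614-120887713, minus strand: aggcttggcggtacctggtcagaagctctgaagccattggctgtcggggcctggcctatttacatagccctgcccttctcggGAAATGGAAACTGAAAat
Isg15 carries 3 overlapping matches between 78 and 57 bases before its start, and Ifit1 and Ifit3 carry 2 each. A promoter was found for 90 of the 115 interferon response genes. Of these, 29 of 60 genes at least 2-fold higher held a match (48.3%), and 10 of 30 others did (33.3%). Over 8502 tested genes with a promoter the share was 3.14%, and over all 32851 promoter windows 2.98%. Read the other way, 16.5% of 267 tested genes with a match were at least 2-fold higher, against 3.86% of 8235 without one. Those 267 genes include members of the interferon lists. Outside these lists, 15 of 302 genes at least 2-fold higher held a match (4.97%). The GAS, searched as TTCNNNGAA, which can overlap an ISRE, was in 10 of the 60 (16.7%), 8 of the 30 (26.7%) and 7.27% of all tested genes. A match describes letters only, and these lists were drawn up from known interferon targets.

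The OAS enzymes sense double-stranded RNA and make a second messenger that leads to the decay of viral RNA. Of 9 tested genes of this pathway 7 were at least 2-fold higher, with a median log2 ratio of 2.92. On the log2(TPM + 1) scale this median was 1.94, near those of the GTPases (1.99) and chemokines (2.01). Oas2 was at 1.17 CPM (0.74 to 1.75) and 37.4 (34.8 to 40.1), 32.1-fold higher (21.2 to 50.9), and Oas1a was 19.0-fold higher (14.4 to 25.7). Oasl2, the most abundant member, was at 25.4 and 226 CPM. Oas1a and Oas1g are close copies, so how their reads were divided is uncertain.

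**Figure D2:**
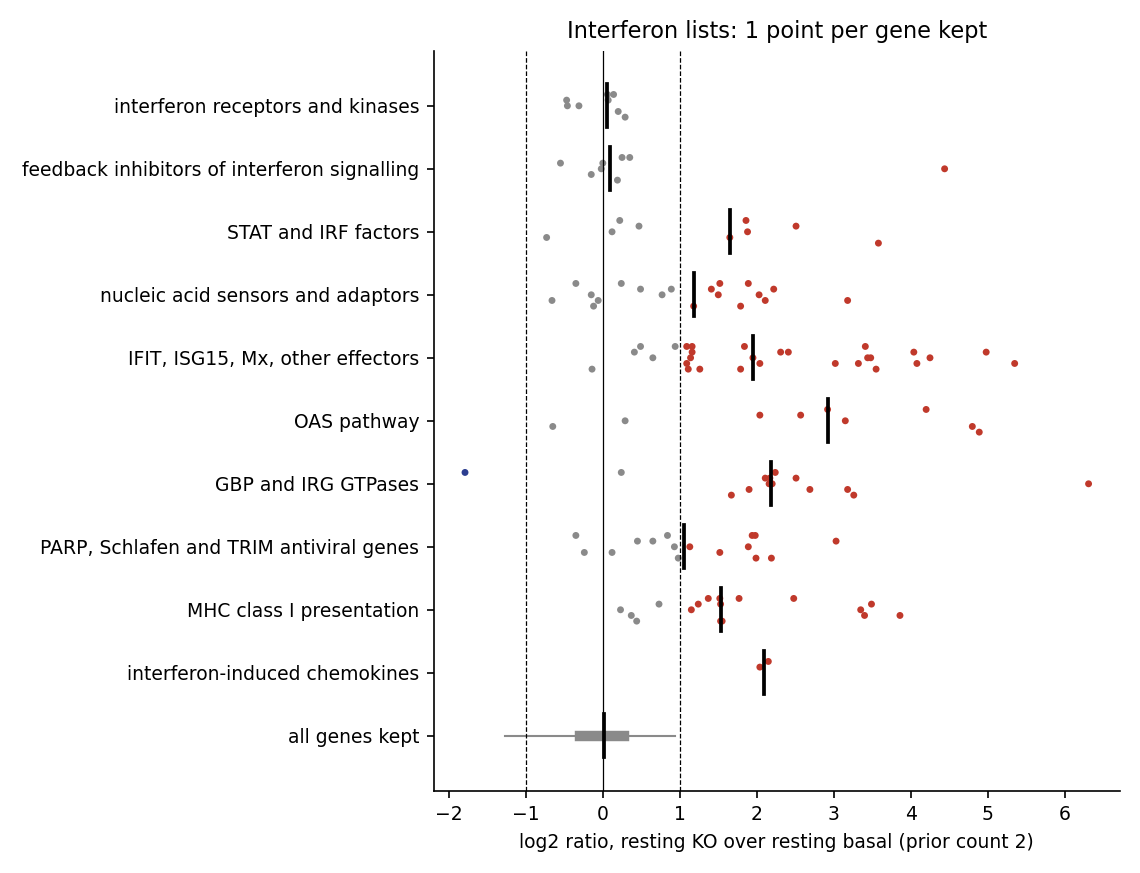
Log2 ratio of the library named KO over the library named basal (x axis) for each gene kept by the filter in the interferon lists (rows). Points are genes, red at least 2-fold higher and blue at least 2-fold lower, thick black ticks are list medians, and the last row gives the median and the 5th, 25th, 75th and 95th percentiles of all genes kept. Receptors and kinases sit around 0, and the OAS pathway has a median of 2.92.

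Guanylate-binding proteins and immunity-related GTPases attack the membranes around intracellular microbes and answer interferon gamma strongly. Of 14 tested members 12 were at least 2-fold higher and 1 lower, with a median log2 ratio of 2.19. The immunity-related GTPases Iigp1 and Irgm1 were 9.82-fold (7.74 to 12.6) and 4.74-fold (4.42 to 5.08) higher. Gbp3 was at 18.1 and 104 CPM, whereas Gbp2 was at 55.3 and 65.4. Gbp9 was the one interferon response gene at least 2-fold lower, at 2.79 and 0.74 CPM, 0.264 of the parental level (0.139 to 0.474), but its log2 ratio on the log2(TPM + 1) scale, -0.85, was short of 2-fold. Tgtp1 had 0 counts and 159 counts, at least 51.3-fold higher against a floor of 3 counts, but its near-identical copy Tgtp2 had 200 and 1892 counts. In the second quantification the log2 ratio of Tgtp1 was 1.91, so the division of reads between these copies is uncertain.

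Among PARP, Schlafen and TRIM antiviral genes 8 of 16 tested members were at least 2-fold higher, with a median log2 ratio of 1.06. The partners Parp9 and Dtx3l, which act as one ligase complex, were 3.95-fold (3.57 to 4.37) and 3.85-fold (3.47 to 4.28) higher. Parp14 was at 26.5 and 122 CPM and Slfn8 at 2.28 and 19.3. Trim56 (40.1 and 31.4 CPM), Trim12a (9.83 and 8.30) and Trim30d (6.94 and 7.56) showed no such increase.

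MHC class I genes present peptides to CD8+ T cells. The heavy chains H2-K1 and H2-D1 were at 33.0 and 481 CPM and at 72.9 and 746 CPM, 14.6-fold (13.4 to 15.8) and 10.2-fold (9.69 to 10.8) higher. Their light chain B2m was at 384 and 1306 CPM, 3.40-fold higher (3.32 to 3.49). Nlrc5, the transactivator of class I genes, was at 6.18 and 66.1 CPM. Peptide transport and trimming followed: Tap1 was 2.94-fold, Tap2 2.87-fold and the immunoproteasome subunit Psmb9 12-fold higher. In all 13 of 17 tested members were at least 2-fold higher and 0 lower (median log2 ratio 1.53), and the 4 within 2-fold were H2-M3, Tapbp, Psme1 and Psme2. Class I heavy chains are near-identical, so the split of reads among them is uncertain.

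Usp18 was the only feedback inhibitor past 2-fold among 8 tested (12.5%). It was at 3.70 CPM (2.90 to 4.65) and 82.3 (78.4 to 86.3), 22.2-fold higher (17.6 to 28.5). The cytokine signalling suppressors Socs1 and Socs3 were at 12.3 and 15.8 CPM and at 47.0 and 32.0 CPM. The 2 tested interferon-induced chemokines were both at least 2-fold higher, with a median log2 ratio of 2.1. Cxcl10 was at 3.29 and 13.9 CPM and Ccl5 at 7.55 and 33.8. Cxcl9 and Cxcl11 had at most 3 counts in either library.

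Set beside the other libraries, the high interferon levels of the library named KO were not seen in the library named rescue. Summed over all 135 response genes in the table, levels were 4080 CPM in the library named basal, 11852 in that named KO and 3459 in that named rescue. Usp18 was at 3.70, 82.3 and 2.28 CPM in these, Ifi44 at 2.79, 118 and 1.21, and Ifit1 at 17.9, 211 and 9.64. The 81 genes were chosen for a high level in the library named KO. All 81 were below that level in the library named rescue, where 72 were at no more than 1.5 times the level of the library named basal and 58 were below it. Of all 115 response genes tested, 33 were at least 2-fold lower in the library named rescue than in that named basal and 2 higher, with a median log2 ratio of -0.47. Over all 11879 genes 742 were lower (6.25%) and 316 higher (2.66%). OAS pathway genes (6 of 9 lower, median -1.35) and the GTPases (8 of 14 lower, median -1.19) had the lowest medians of the 8 lists, while MHC class I genes had 0 of 17 lower and a median of 0.16. The library named rescue comes from another culture with 1 library, and whether the human cDNA or the culture made this difference was not tested.

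The library named basal with TNF reached a like or higher level, a sum of 19736 CPM over the 135 genes, and the library named KO with TNF to 13590. For 56 of the 81 genes the resting KO level lay within 2-fold of the library named basal with TNF, for 22 it was at least 2-fold below and for 3 at least 2-fold above. Ifi27l2a was one of the latter, at 68.8 CPM against 7.45. The shortfall was widest in chemokines, which summed to 47.8 CPM against 1890, and in the GTPases, at 843 against 2863. OAS genes (382 against 537 CPM) and MHC class I genes (3717 against 5156) stood closer. Gbp2 was at 65.4 against 1000.5 CPM, Irf1 at 68.6 against 289, Jak2 at 45.9 against 361 and Ccl5 at 33.8 against 1680. Thus the resting KO library shared the high levels of Isg15 (128 against 144), Bst2 (213 against 204) and Stat2 (196 against 227) but not those of Gbp2, Irf1 and Ccl5. Of the 81 genes, 77 were within 2-fold between the libraries named KO with and without TNF.

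**Figure D3:**
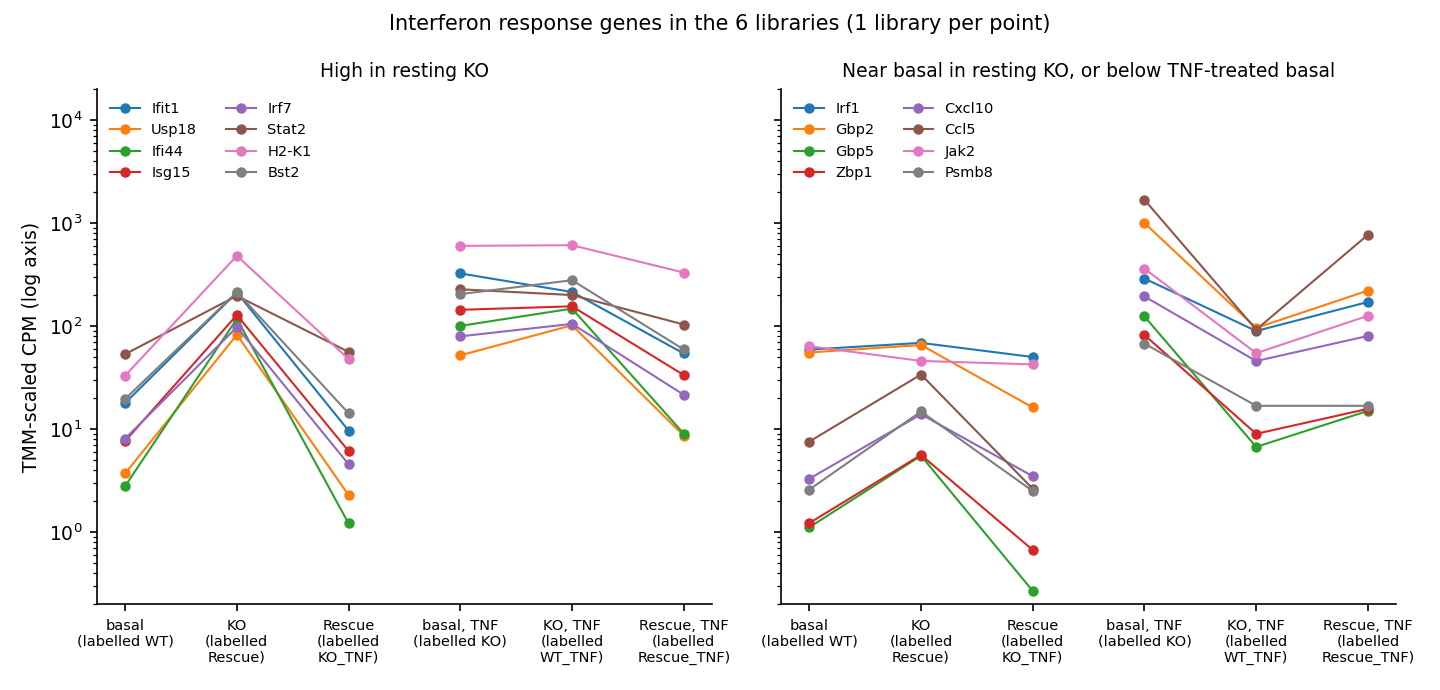
TMM-scaled CPM (y axis, log scale) of 16 interferon response or signalling genes in the 6 libraries (x axis, by file name with the label in brackets), 1 library per point. In the left panel the resting library named KO lies near the libraries named basal with TNF and KO with TNF, with Stat2 at 196 CPM. In the right panel it lies near the resting libraries or below basal with TNF, with Ccl5 at 33.8 CPM.

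The pair given TNF shares no library with the resting pair, so it shows which differences appeared in both. There 707 of the same 11879 genes were at least 2-fold higher in the library named KO (5.95%) and 946 lower (7.96%). Of the 530 genes higher at rest 337 were also higher with TNF (63.6% of the resting list and 47.7% of the TNF list). Of the 831 lower at rest 591 were also lower (71.1% and 62.5%). Of the 81 interferon response genes higher at rest, 3 were also at least 2-fold higher with TNF (3.7%) and 16 were at least 2-fold lower. Over all 115 response genes tested, 3 were higher with TNF and 29 lower, with a median log2 ratio of -0.42. Ptbp2, with log2 ratios of 2.51 at rest and 2.34 with TNF, was among the shared differences, and Isg15, at 4.04 and 0.11, was not.

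Inflammatory NF-kB targets were not higher along with the interferon genes. Of 26 tested TNF and NF-kB targets 2 were at least 2-fold higher (7.69%) and 5 lower (19.2%), with a median log2 ratio of -0.20. Over all genes 4.46% were higher and 7.0% lower. The chemokine Ccl2 was at 46.1 and 33.0 CPM, the inhibitor Nfkbia at 61.1 and 76.1 and Tnfaip3 at 37.5 and 24.1. Those lower were the neutrophil chemokine Cxcl1 (32.0 and 8.44 CPM), the adhesion molecule Vcam1 (114 and 46.4), Bcl3 (11.2 and 1.82), Birc3 (15.2 and 3.73) and Irak3 (11.9 and 2.16). Complement C3, which TNF and interferon can raise, was among the 12 lowest log2 ratios of all genes, at 69.7 and 3.04 CPM, 22.9-fold lower (17.8 to 30.0). Selp and Traf1, the 2 higher members, stayed under 4 CPM. In the library named rescue Cxcl1 was at 6.87 CPM, Bcl3 at 0.80, Irak3 at 0.80, Birc3 at 7.77 and C3 at 1.70. Of the 26 targets 3 were at least 2-fold lower there than in the library named basal and 0 higher. The shares over all genes were 6.25% and 2.66%.

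Cell division genes were higher as a body. All 32 tested DNA replication and mitosis genes had a positive log2 ratio, 18 were at least 2-fold higher and 0 lower, and the median was 1.06. Cyclin B1 (Ccnb1), which drives entry into mitosis, was at 36.9 and 142 CPM, 3.86-fold higher (3.55 to 4.19). Cyclin A2 (Ccna2) was 3.34-fold (3.15 to 3.55), the S-phase cyclin Ccne2 3.70-fold (3.06 to 4.48) and the mitotic kinase Aurkb 2.99-fold (2.64 to 3.39) higher. In the library named rescue Ccnb1 stood at 103 CPM and Ccna2 at 135, above the library named basal. CDK inhibitors and p53 targets had 0 of 24 members higher and 3 lower (12.5%). Over all 11879 genes 4.46% were higher and 7.0% lower. The CDK inhibitor Cdkn2b was at 105 and 34.2 CPM, the p53 target Perp at 7.50 and 0.79 and the stress cytokine Gdf15 at 22.7 and 10.2, while Cdkn1a (p21) was at 527 and 547.

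Surface and matrix genes of mesenchymal cells gave the lowest ratios. Cd34, a sialomucin of progenitor and stromal cells, was at 166 CPM (161 to 172) in the library named basal and 0.88 (0.52 to 1.40) in that named KO, 188-fold lower (119 to 318). Thy1 was at 62.2 and 0.20, the prostacyclin synthase Ptgis at 28.8 and 0.05 and the lipid receptor S1pr3 at 13.1 and 0.05 CPM. The growth factor receptor Pdgfra was at 460 and 63.6. In this list 6 of 12 tested members were at least 2-fold lower and 1, Mcam, was higher. Cd34, Thy1, Ptgis and S1pr3 were near 0 in the library named rescue too, at 0.62, 0.18, 0.04 and 0.13 CPM.

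Matrix genes were mixed. The fibulin-family gene Efemp1 was at 157 and 0.15 CPM, 3106 counts against 3, a ratio of 1069 (365 to 5186). Mmp2, the gelatinase, was at 233 and 0.34 CPM. In the library named rescue Mmp2 was at 49.0 CPM and Efemp1 at 0.49. Elastic fibre and cross-linking genes Fbln2 (2313 and 672 CPM), Loxl2 (132 and 27) and Lox (3126 and 1261) were lower, whereas Fn1 (9022 and 10443) and Col1a2 (8828 and 10565) were not. Of 23 tested matrix genes 2 were at least 2-fold higher (8.7%) and 7 lower (30.4%), with a median log2 ratio of -0.28. The shares over all genes were 4.46% and 7.0%. In the library named rescue 7 of the 23 were at least 2-fold lower than in that named basal and 0 higher. Over all genes 6.25% were lower there and 2.66% higher. Loxl2 was at 1.96 CPM there and Fbln2 at 1815. Metalloproteinases and their inhibitors had 0 higher and 5 lower of 14 (35.7%). Among basement membrane genes the laminin chains Lama4 (91.0 and 5.74) and Lama5 (42.8 and 139) went opposite ways. Of 24 tested members of that list 4 were higher (16.7%) and 3 lower (12.5%). In the library named rescue Lama4 was at 1.34 CPM and Lama5 at 154.

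Genes of other lineages appeared at low levels. Gata4, a cardiac transcription factor, was at 2.53 and 29.6 CPM, and cardiac troponin Tnnt2 at 3.70 and 17.8, while the contractile genes Myh6, Myh7 and Actc1 had at most 2 counts in either library. The phosphodiesterase Pde2a was at 1.42 and 48.1 CPM, with a log2 ratio of 4.99 that was 3.97 in the second quantification. Mdga1 was at 2.79 and 43.2 and Sprr1a, a keratinocyte envelope gene, at 1.87 and 26.8. Sprr1a was the 1 higher gene of 3 tested epithelial markers, whose median log2 ratio was -0.51, and the keratin gene Krt19 was at 27.4 and 19.2 CPM. H2-Gs10, a class I-like gene, was at 2.99 and 78.4. Gas6, Dlk1, Adcyap1r1, Iglon5 and Nynrin were also among the 12 lowest log2 ratios, with Dlk1, a Notch-related membrane protein, at 515 and 15.0 CPM. In the library named rescue Gata4 was at 35.6 CPM, Tnnt2 at 6.29, Pde2a at 12.1, Mdga1 at 15.8 and Sprr1a at 4.86. Dlk1 was at 4.51 CPM there, Gas6 at 0.13, Nynrin at 0.62, Iglon5 at 7.54 and Adcyap1r1 at 53.7. Smooth muscle genes had 1 of 14 lower (Cald1, 7.14%) and cholesterol genes 1 of 17 lower (5.88%), near the 7.0% over all genes. Unfolded protein response genes had 0 of 18 past 2-fold. Neuronal genes had 2 higher and 2 lower of 9 (22.2% each), where 4.46% of all genes were higher.

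**Figure D4:**
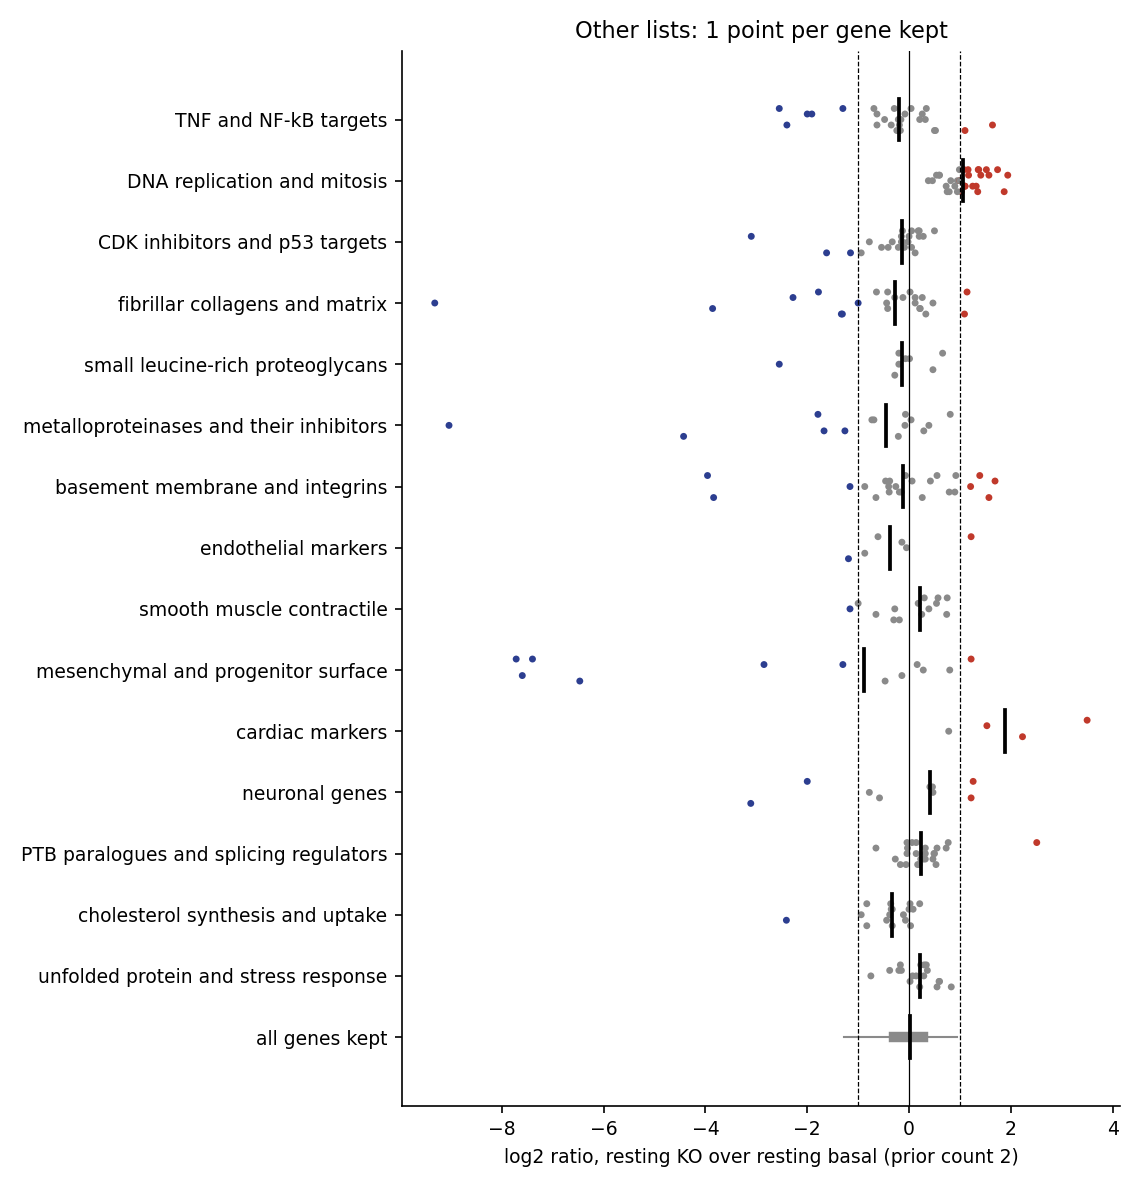
Log2 ratio of the library named KO over the library named basal (x axis) for genes kept by the filter in 15 other lists (rows), drawn as in the plot of the interferon lists. All replication and mitosis genes lie above 0, and the mesenchymal list reaches -7.72, the value of Thy1.

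Exon use differed at a small share of the exon nodes read. Of 83206 exon nodes of type CE with at least 20 reads in both libraries, 229 had a psi at least 0.2 higher in the library named KO (0.275%). In 231 psi was at least 0.2 lower (0.278%). These nodes include exons with a psi of 1.0 in all 6 libraries, such as an exon of 111 nt in Ptbp2. The shares are therefore not shares of alternative exons alone. Of 209 higher nodes that could be read with TNF 122 were higher there as well, and of 200 lower nodes 65 were lower. Over all 80107 CE nodes read in both pairs, 230 were higher and 190 lower with TNF. Of 6034 retained introns 23 had a higher and 84 a lower psi at rest, but in the pair given TNF 27 were higher and 29 lower of 5742. The exon with the largest increase was one of 183 nt in Phldb2, a cortical microtubule anchor, at a psi of 0.0284 (named basal) and 0.917 (named KO). Palld, an actin-bundling scaffold, had more inclusion of an exon of 51 nt (0.0243 and 0.715), and Trip10, a membrane-curving adaptor, one of 168 nt (0.087 and 0.71). Kansl3, Gabbr1 and Col4a3bp had differences of 0.658, 0.637 and 0.628. All 6 were at least 0.575 higher in the pair given TNF, and in the library named rescue each lay between the resting basal and KO values.

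Among exons with lower psi, the HDL receptor gene Scarb1 skipped a 129-nt exon (psi 0.868 and 0.289), filamin C (Flnc) one of 99 nt (1.0 and 0.498) and the clathrin adaptor Picalm one of 24 nt (0.719 and 0.223). Mlkl, which executes necroptosis, was at 0.958 and 0.461 for a 50-nt exon, and Osbpl9 at 0.755 and 0.221. Luc7l2, a U1-associated splicing factor, showed the largest decrease at rest (0.865 and 0.152) but not with TNF (0.701 and 0.697). Exons of Palld and Picalm are shown as examples of opposite direction, and both lengths are multiples of 3, which keeps the reading frame:
Palld exon, 51 nt, chr8:61534858-61534908, minus strand: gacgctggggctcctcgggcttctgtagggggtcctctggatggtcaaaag
Picalm exon, 24 nt, chr7:90194273-90194296, plus strand: aatggcatgcattttccacaatac
Inclusion of the Palld exon was 0.066 and that of the Picalm exon 0.644 in the library named rescue, both near the library named basal.

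**Figure D5:**
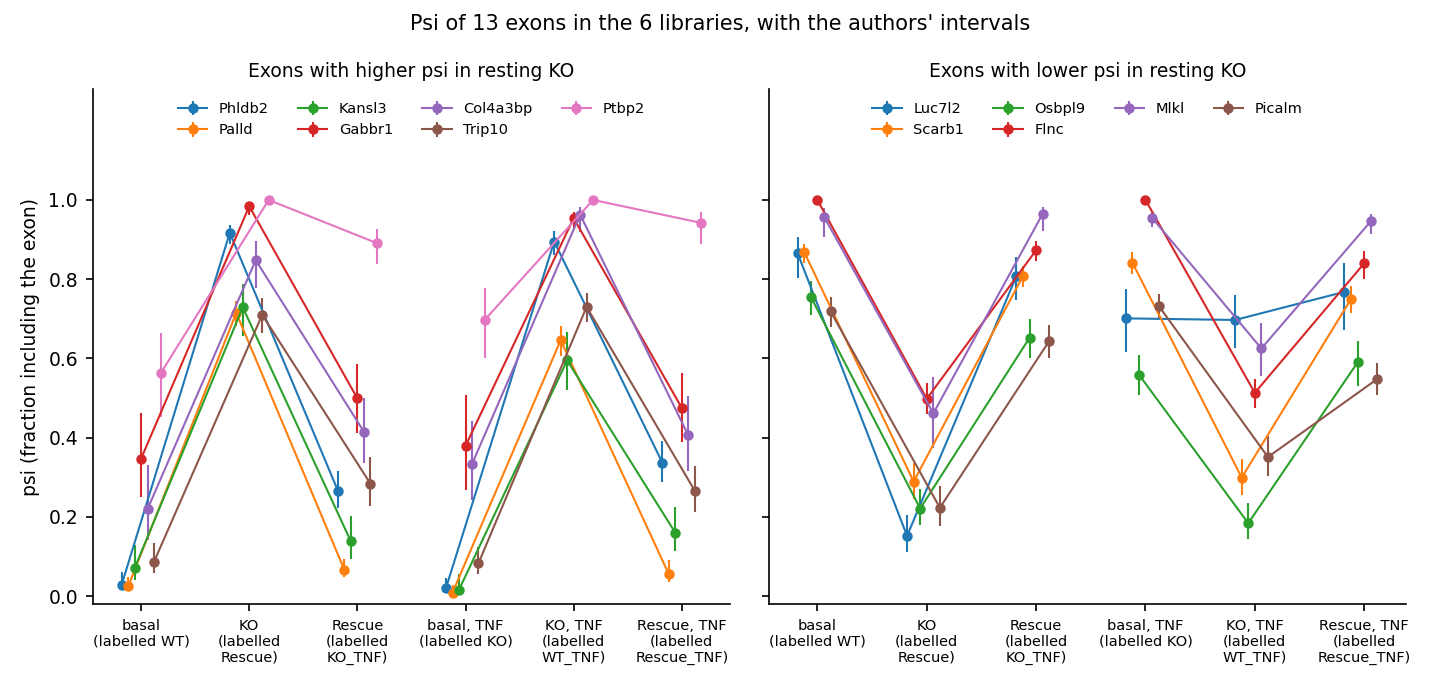
Psi, the fraction of reads that include an exon (y axis), for 13 exons in the 6 libraries (x axis, by file name with the label in brackets), with the authors' intervals as bars. Both libraries named KO stand apart from the other 4 for Phldb2 and Scarb1, while the Luc7l2 exon is low in the resting library named KO alone.

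A few of these exons lay in interferon genes. Of 628 CE nodes read in 94 genes of the interferon lists 2 were at least 0.2 higher and 7 lower (1.43%). Over all 83206 CE nodes the count was 460 (0.553%). Of the 9 in the interferon lists 1, a 75-nt exon of Sp100, differed the same way with TNF. That exon was at 0.875 and 0.595 at rest and at 0.781 and 0.495 with TNF. A 128-nt exon of the receptor gene Ifnar2 was at 0.824 (52 reads) and 0.385 (60.8 reads) at rest, but at 0.682 and 0.848 with TNF. Junction reads that skip this Ifnar2 exon numbered 5 in the library named basal and 10 in that named KO. Reads joining it upstream and downstream numbered 9 and 37 in the former and 13 and 36 in the latter, so joining reads were not fewer as a whole. The difference at Ifnar2 therefore rested on few reads and did not recur in the pair given TNF.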

How the data were processed

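RNA of 6 libraries was sequenced, and the authors deposited expected counts and TPM per gene (RSEM, per the submitters' processing notes; aligner, version and genome build not given in the sources used here). They also deposited a second set of estimated counts per gene, read counts per splice junction, and exon inclusion (psi) as a fraction with its estimated reads, whose tool is not given in the sources used here. Of the exon nodes of type CE, 99.8% shared an exon edge, either start or end, with GENCODE vM21 (GRCm38). For the library named KO the deposited table is per transcript, so its expected counts and TPM were summed by gene. Rows without a gene name, 0.0735% to 0.0927% of expected counts, were dropped, which left 21674 genes.

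Groups follow file names, and the labels' groups are an alternative. The 2 libraries compared were 1 per group, so no test across genes was run. Expected counts were rounded and scaled with TMM factors over the 6 libraries (edgeR 4.0.16, R 4.3.3). Log2 ratios used a prior count of 2 on genes with a mean of at least 1 CPM in the pair, and "higher" and "lower" mean at least 2-fold. Intervals are exact 95% Poisson or conditional binomial intervals (scipy 1.17.1), and a count of 0 was set to a floor of 3. Reads without molecular identifiers are not independent molecules, so intervals cover counting error only. Nodes needed 20 reads in both libraries and a psi difference of at least 0.2. The log-ratio step was tested on simulated data. Promoters were RefSeq windows (GRCm38.p6).

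Named genes were the Ptbp genes, the markers, members of the interferon lists, up to 4 of each other list with at least 10 CPM, and the 12 highest and 12 lowest log2 ratios with at least 20 CPM. Named nodes were the 6 highest and 6 lowest with at least 50 reads, 1 per gene. Other listed genes and the Ptbp1 nodes were named for contrast after their values were seen. Members and lists were chosen with earlier results of these data known. Listed genes not in the table were not analysed here, and a few genes counted in the lists are not reported by name. Alternatives were DESeq2 1.42.0 size factors, library totals, other prior counts, filters and folds, TPM, the second quantification and, for psi, other read minimums and differences.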

Additional observations from a re-analysis of the deposited data

How the results depend on the processing

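With 1 library per group, leaving out a replicate was not possible. No paired analysis was possible because each group is 1 library. DESeq2 factors, library totals, prior counts of 0.5 and 5 and the second quantification gave 475 to 543 genes higher and 708 to 853 lower, and 73 to 81 interferon response genes higher, with the interferon median at 1.68 or more. Without the filter 889 genes were higher and 1725 lower, and 4 interferon response genes were lower. A filter of 5 CPM left 440 lower and 0 interferon response genes lower. On log2(TPM + 1) the interferon median was 1.5 and 0 interferon response genes were lower, since a pseudocount shrinks ratios of low genes. A fold of 1.5 gave 1233 higher and 1586 lower, with 4 interferon response genes lower, and a fold of 4 gave 117 and 273, with 46 interferon response genes higher and 0 lower. CE nodes with higher psi numbered 117 at 50 reads and 616 at a difference of 0.1. Those with lower psi numbered 365 at 10 reads, 112 at 50 reads and 833 at a difference of 0.1.

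Of the values of 126 named genes under the processing alternatives, 930 moved little, 67 moved and 0 reversed. Reversed means a change of sign in a value that was at least 2-fold in the main setting. In the second quantification Mmp2 had a log2 ratio of -8.38, Ptgis -8.87, Rsad2 3.64, Oas1g 4.15 and Gabbr1 0.89, the last short of 2-fold, as was Selp on the TPM scale (0.88). Of 25 lists' medians under these alternatives, 185 moved little and 15 moved. In the second quantification the matrix median was -0.15 and that of the STAT and IRF factors 1.05, and without the filter the chemokine median was 1.31. Some smaller medians changed sign. The neuronal median of 0.41 was -0.16 in the second quantification, and the epithelial median of -0.51 was 1.63 with the filter of 5 CPM. The macrophage and blood cell median of -0.23 was 0.28 without the filter. The cause was not tested.

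The labels' groups set another library, the one labelled KO (named basal with TNF), against the library labelled WT. There the interferon median was 2.23 with 0 interferon response genes lower, the TNF target median 2.49, the replication median -0.26 and the cardiac marker median -0.06, the last 2 reversed. Of the named genes, 24 reversed. Log2 ratios were 5.28 for C3, 3.67 for Gbp9, 3.67 for Vcam1, 2.38 for Bcl3, 2.37 for Birc3, 2.04 for S1pr3, 2.0 for Cxcl1, 0.94 for Lama4, 0.81 for Iglon5, 0.31 for Ptgis, 0.3 for Cald1, 0.15 for Cd34 and 0.06 for Cdkn2b. They were -1.23 for Mcam, -0.84 for Tnnt2, -0.43 for Ccna2, -0.4 for Sprr1a, -0.26 for Mdga1, -0.26 for Gabbr1, -0.25 for Ccne2, -0.18 for Ccnb1, -0.1 for Gata4, -0.04 for Aurkb and -0.01 for Ptbp2.

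Depth limited statements on genes with few counts, the interferon ligands among them, and counting intervals do not cover variation between cultures.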

Other observations

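Other kinds of splicing node were read with the same minimum of 20 reads and psi difference of 0.2. Of 4390 alternative acceptor nodes 56 had a higher psi in the library named KO and 81 a lower one, and of 3338 alternative donor nodes 49 were higher and 60 lower. Of 48 acceptor nodes higher at rest that could be read with TNF, 17 were higher there too, and of 68 lower ones 8 were lower. For donor nodes these counts were 10 of 43 and 10 of 51. Over all 4177 acceptor nodes read in both pairs 57 were higher and 51 lower with TNF. Over all 3120 such donor nodes 41 were higher and 40 lower. Of 22 retained introns higher at rest and read with TNF 3 were higher there, and of 66 lower ones 9 were lower. Over all 5742 read in both pairs 27 were higher and 29 lower with TNF.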
